A study of Mus musculus with 2 samples.

Results

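CTCF, the subunits of the cohesin ring and the proteins that load and regulate the ring were followed in estradiol-treated G1E-ER4 cells as 10 genes, Ctcf, Ctcfl, Smc1a, Smc3, Rad21, Stag1, Stag2, Nipbl, Pds5a and Pds5b. They were taken by symbol, through their GENCODE gene identifiers, from the 43346 gene rows of the deposited tables, and all 10 were found. G1E-ER4 is a mouse erythroid line, labelled male, that grew out of Gata1-null embryonic stem cells and carries GATA1 joined to the ligand-binding domain of the estrogen receptor, so that estradiol switches on GATA1 activity and red cell maturation. Poly(A) RNA was sequenced in paired-end mode after 30 h in 10 nM 17beta-estradiol. The 2 libraries are biological replicates 1 and 2 of 1 treated group. Untreated cells were not analysed here, so the data give levels, ratios between genes, transcript use and the spread between replicates, and no effect of estradiol.

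Cohesin is a ring made of the long coiled-coil proteins SMC1A and SMC3, closed by the kleisin RAD21, to which either STAG1 or STAG2 is bound. NIPBL with its partner MAU2 loads the ring on DNA and drives the extrusion of chromatin loops, WAPL with PDS5A or PDS5B releases it, and CTCF, a zinc finger protein, stops it at its binding sites and so sets the borders of many loops and domains. The same ring holds sister chromatids together until mitosis. In erythroid cells CTCF sites flank the alpha-globin and beta-globin gene clusters. CTCFL, also called BORIS, is a CTCF paralog of the male germ line.

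The gene rows held 73681318 expected counts (estimated fragments) in replicate 1 and 56056404 in replicate 2. Levels are in TPM, counts per length scaled to 1 sum in each library, given as the value in each library and as mean ± SD with n = 2. All 12 erythroid markers reached 1 TPM in both libraries, with sums of 271628 and 286431 TPM in replicates 1 and 2. The germ cell markers Ddx4, Sycp1, Sycp3, Dazl, Stra8 and Tex101 had 0 counts in both. None of the 9 myeloid, 5 lymphoid, 4 fibroblast and 3 endothelial markers reached 1 TPM in both libraries, while 3 of 5 megakaryocyte and 1 of 5 progenitor markers did. In replicate 2 alone, the myeloid markers Mpo, Prtn3 and Elane passed that level, at 3.96, 3.76 and 3.04 TPM. They had 0.19, 0.08 and 0.04 TPM in replicate 1, and the other myeloid markers stayed below 1 TPM in each library. In bulk RNA, fewer cells of a type and less RNA per cell cannot be told apart.

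Of the 10 genes, 8 reached 1 TPM in both libraries, against 35.3% of 21474 protein-coding genes. Ctcf was far above the others, the core genes ran from 4.40 TPM (Smc1a in replicate 2) to 23.1 TPM (Smc3 in replicate 1), Pds5b was below 1 TPM and Ctcfl was not detected. Ctcf (ENSMUSG00000005698, chromosome 8, 105636568 to 105682922, plus strand) had 133 TPM from 13651 counts in replicate 1, and 131 TPM from 10534 counts in replicate 2. The libraries were close for this gene. Its mean of 132 ± 1.42 TPM was higher than 89.8% of the 7570 protein-coding genes that reached 1 TPM in both libraries. Most of this level, though, belonged to short transcripts without an annotated coding sequence, as described next.

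The transcript tables divide Ctcf among 6 transcripts, of which 3 took nearly all of its TPM. Ctcf-201 (ENSMUST00000005841), with 3782 bases in 12 exons and 2208 coding bases, is the complete coding transcript. It stood at 15.7 TPM in the first replicate and 18.9 TPM in the second. Ctcf-204 (ENSMUST00000132679), a processed transcript of 1554 bases in 10 exons, had 63.3 and 56.9 TPM. Ctcf-206 (ENSMUST00000156436), a retained-intron transcript of 851 bases in 3 exons, had 52.4 and 53.1 TPM. In both libraries the coding transcript was thus the lowest of the 3, with 11.8% and 14.4% of the gene's TPM in replicates 1 and 2. Because TPM divides counts by length, its share of the counts was larger, at 31.2% and 36.97%. Counted by its coding transcript alone, Ctcf was higher than 61.2% of the genes with 1 TPM or more in complete coding transcripts. Ctcf-204 led by counts as well, with 6606 and 4504 counts, beside 4255 and 3895 for Ctcf-201 and 2717 and 2062 for Ctcf-206. The authors' posterior standard deviations of these counts lay between 43.4 and 78.0, far below the gaps between the transcripts. They measure how reads were shared among the listed transcripts, and not error from uneven coverage, which was not tested. Among the 3404 multi-transcript protein-coding genes whose level was 10 TPM or more in each library, 18.1% had a lower share of TPM in complete coding transcripts than Ctcf, and their median share was 70.1%.

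**Figure D1:**
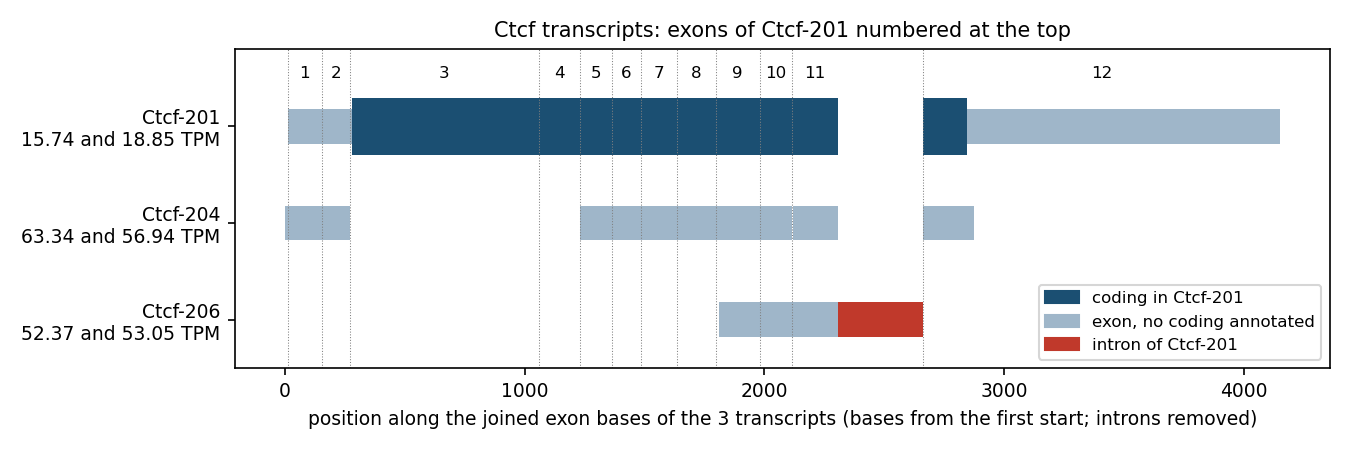
Exons of the 3 leading Ctcf transcripts along their joined exon bases, with introns taken out and drawn to scale. Dark blue is coding sequence of Ctcf-201 and pale blue is exon without annotated coding sequence. Red is the part of a Ctcf-201 intron that Ctcf-206 holds, and the labels give the TPM in replicates 1 and 2. Ctcf-204 lacks exons 3 and 4, which hold the coding start.

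The 3 transcripts differ at places that can be read from their sequences, taken here from the GENCODE M21 transcripts on build GRCm38 (mm10), plus strand, 5′ to 3′. Exon 3, which Ctcf-204 skips together with exon 4, opens the reading frame. Its first 60 coding bases, chr8:105663763-105663822, are shown with the start codon in capitals.
Ctcf-201 coding start: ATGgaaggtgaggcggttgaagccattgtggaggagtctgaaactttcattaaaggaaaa
The next pair shows where Ctcf-206 leaves the coding path, at the end of exon 11, with the first 6 bases past that end in capitals. In Ctcf-201 the exon, from chr8:105680236-105680259, is joined to exon 12 at chr8:105681435-105681470, and in Ctcf-206 the sequence runs on through chr8:105680236-105680295 into the intron, whose GTAAGT is a typical donor splice site left uncut.
Ctcf-201 exon 11 to exon 12: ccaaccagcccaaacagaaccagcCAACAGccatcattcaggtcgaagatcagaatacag
Ctcf-206 exon 11 into intron: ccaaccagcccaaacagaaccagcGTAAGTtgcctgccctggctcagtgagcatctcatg
The last pair shows the join of exon 10, chr8:105677327-105677350, to exon 11, where Ctcf-204 starts 3 bases later than Ctcf-201, and the bases it lacks are in capitals.
Ctcf-201 exon 10 to exon 11: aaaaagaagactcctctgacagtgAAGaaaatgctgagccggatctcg
Ctcf-204 exon 10 to exon 11: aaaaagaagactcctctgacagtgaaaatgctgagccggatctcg

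Ctcf-204 shares 1543 of its 1554 bases with Ctcf-201 and covers 56.7% of its coding bases. It lacks the 961 bases of exons 3 and 4, of which 952 are coding, and the final 1275 bases of the last exon. In human cells a short CTCF protein made by skipping exons 3 and 4 has been described. Whether Ctcf-204 is translated cannot be read from RNA, and its reads are told from those of Ctcf-201 mainly by the exon 2 to exon 5 join, by those 3 bases and by how evenly the exons are covered. The bases shared by both transcripts had a GC content of 52.8%. Exons 3 and 4 had 47.8%, and the end of the last exon 37.6%. In these libraries AT-rich genes had lower levels, as the values beside the core subunits show, and the part of GC content in the split between Ctcf-201 and Ctcf-204 was not tested. Ctcf-206 holds 358 bases of intron at 39.9% GC, and its other 493 bases are coding exon of Ctcf-201. Its annotated end, at 105680617, lies inside that intron, before exon 12 starts at 105681435. The part of GC content in the split between Ctcf-206 and Ctcf-201 was not tested either.

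Ctcfl (ENSMUSG00000070495, chromosome 2, 173093609 to 173119525, minus strand) had 0 counts in both libraries. The upper limit at 0 counts is 3 counts, which equals 0.0132 TPM for replicate 1 and 0.0173 TPM for replicate 2. Against these limits, taken per library, Ctcf was at least 10059-fold and 7564-fold higher by gene, and at least 1189-fold and 1087-fold higher by its complete coding transcript. On the opposite strand of the Ctcf locus, Gm5914 had 185 and 190 counts and Agrp 1.08 and 1.06, and whether reads were assigned by strand is not known here. The antisense gene Ctcflos, which overlaps Ctcfl, had 0 and 1 counts.

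**Figure D2:**
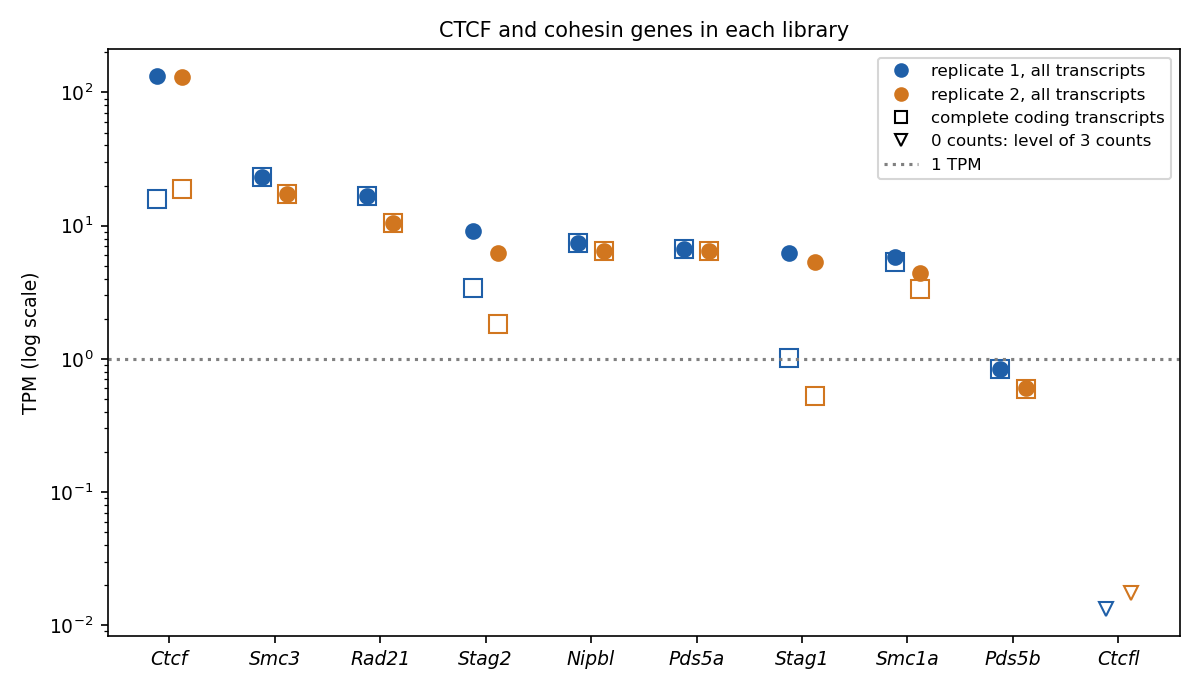
TPM of the 10 genes in replicate 1 (blue) and replicate 2 (orange), on a log axis, ordered by mean level. Filled circles are all transcripts of a gene, open squares its complete coding transcripts, and open triangles the level of 3 counts for Ctcfl, which had 0 counts. Circles and squares lie apart for Ctcf, Stag1 and Stag2.

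Among the core subunits, the genes of the ring were not at 1 RNA level, and protein was not measured. Smc3 (chromosome 19, 53600398 to 53645833, plus strand), the SMC subunit acetylated when cohesion is set up, had 23.1 TPM (replicate 1) and 17.2 TPM (replicate 2). Its partner Smc1a (X chromosome, 152016428 to 152062694, plus strand) had 5.78 and 4.40 TPM. The 2 ranges did not overlap, and the log2 ratio of Smc1a over Smc3 was −1.98 ± 0.02 (SD, n = 2), near a 4-fold gap in both libraries. The kleisin gene Rad21 (chromosome 15, 51962240 to 51991747, minus strand) stood at 16.8 TPM in the first replicate and 10.5 TPM in the second, with the largest SD of the core genes. Rad21 was below Smc3 in both libraries, at a log2 ratio of −0.46 and −0.71, and above Smc1a, at 1.54 and 1.26. With 2 libraries an exact sign test cannot go below p = 0.5, so these ratios are given as values with their spread and no test.

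GC content differed among these genes. The mean GC content of the annotated transcripts was 39.4% for Smc3, 47.2% for Smc1a and 50.7% for Rad21, and 7 of the 10 genes lay below the protein-coding median of 49.7%. Among protein-coding genes, 9.38% of those under 40% GC reached 1 TPM in both libraries, and 42.7% of those at 56% or more did. Of the genes that did, the median was 4.71 TPM in the first range and 33.8 TPM in the second. When TPM was adjusted along this relation, Smc3 stood at 53.2 and 43.0 TPM and Smc1a at 8.64 and 6.86 TPM, a wider gap of −2.63, and Rad21 over Smc3 moved to −1.69. How much of the relation is technical was not tested.

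Stag1 and Stag2, the alternative STAG subunits, were nearly level by gene. Stag2 (X chromosome, 42149317 to 42277185, plus strand) had 9.09 TPM (replicate 1) and 6.19 TPM (replicate 2), and Stag1 (chromosome 9, 100597798 to 100959375, plus strand) had 6.24 and 5.30 TPM. Stag2 was higher in each library, but its lower value lay below the higher value of Stag1. The log2 ratio of Stag2 over Stag1 was 0.38 ± 0.23 (SD, n = 2). In complete coding transcripts the genes were further apart, at 3.43 and 1.83 TPM for Stag2 and 1.01 and 0.53 TPM for Stag1. The ratio there was 1.78 ± 0.02, 3.40-fold in replicate 1 and 3.45-fold in replicate 2. By complete coding transcripts the ranges of Stag2 and Stag1 no longer overlapped.

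In both STAG genes the transcript that led by TPM was a short one. For Stag1 it was ENSMUST00000146312, annotated as coding with an open end, whose 1012 bases in 6 exons all lie within the 34-exon coding transcript ENSMUST00000129269. It had 4.62 and 3.33 TPM, or 74.0% and 62.9% of Stag1, and covers 15.6% of that transcript's coding bases. The complete transcript had 16.1% and 10.1% of TPM but 58.9% and 48.1% of counts, so which transcript leads depends on the measure. A retained-intron transcript, ENSMUST00000144005, had 6.16% and 24.2% of TPM from 11.6 and 28.3 counts. For Stag2 the leader by TPM was the processed transcript ENSMUST00000141414 of 699 bases, with 30.9% and 47.2% of TPM from 114 and 88.1 counts. The complete transcript ENSMUST00000069619 had 28.2% and 17.8% of TPM and led by counts, with 1084 and 357. An open-ended coding transcript of 295 bases, ENSMUST00000127618, had 14.7% and 17.2% of TPM from 13.9 and 7.52 counts, and the retained-intron transcript ENSMUST00000136323 had 10.8% and 3.45%. Shares that rest on so few counts over short lengths are imprecise.

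**Figure D3:**
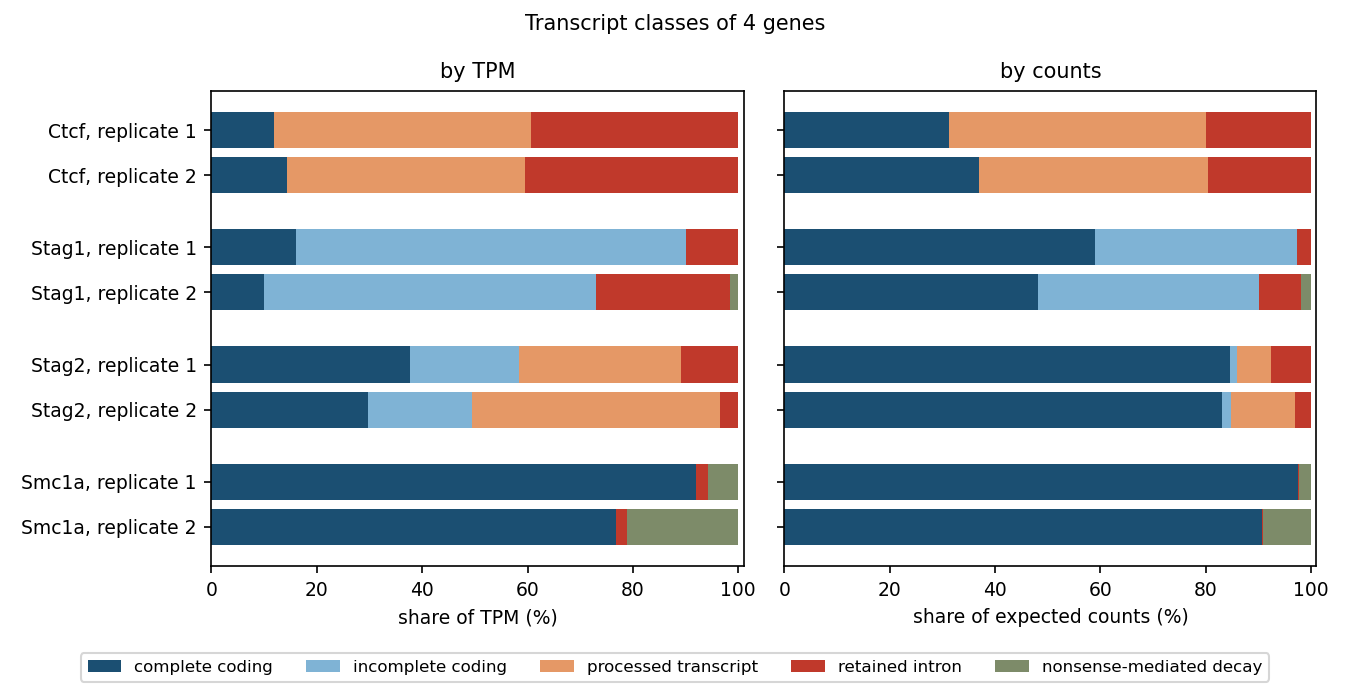
Share of each transcript class in Ctcf, Stag1, Stag2 and Smc1a, by TPM (left) and by expected counts (right), in replicates 1 and 2. Complete coding transcripts take 11.8% and 14.4% of Ctcf TPM, and their share of counts is larger than their share of TPM in all 4 genes.

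The other core and regulatory genes had most of their TPM in a coding transcript. A single complete coding transcript held 100% of TPM in both libraries for Smc3, Rad21, Nipbl and Pds5a. Rad21, Nipbl and Pds5a had 1 transcript each in the deposited tables. For Pds5b, ENSMUST00000016569 held 97.4% and 97.6%, but 87.1% and 73.8% by the authors' posterior mean TPM. The 25-exon coding transcript ENSMUST00000045312 held 92.0% of Smc1a in replicate 1 and 76.7% in replicate 2. The rest was mainly ENSMUST00000145518, a nonsense-mediated decay transcript, at 5.75% and 21.1% of TPM from 41.4 and 87.6 counts with posterior standard deviations of 16.7 and 20.3. Over the 9 genes with counts the leading transcript by TPM was the same in both libraries for all 9, and it was a complete coding transcript for 6. By counts it was complete and coding for 8, with Ctcf as the exception. Rad21, Nipbl and Pds5a had no other transcript, so their place in each of these counts was fixed by the annotation.

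Ordered by complete coding transcripts, Ctcf was no longer first. This order depends on the annotation as well as on level. Rad21, Nipbl and Pds5a had 1 transcript each, so all of their TPM counted as complete coding. Ctcf had 6 transcripts, Stag1 17 and Stag2 8, and could lose TPM to short ones. Smc3 led with 20.1 ± 4.16 TPM, followed by Ctcf at 17.3 ± 2.20 and Rad21 at 13.7 ± 4.46 TPM, and neither Smc3 and Ctcf nor Ctcf and Rad21 were separated, since their ranges overlapped. The log2 ratio of Ctcf over Rad21 was 3.31 ± 0.46 by gene and 0.37 ± 0.66 by complete coding transcripts, with opposite signs in the libraries in the second case. Nipbl and Pds5a came next and were not separated from each other, Smc1a overlapped Stag2, and Stag1 overlapped Pds5b. By gene, the neighbours that overlapped were Stag2 and Nipbl, Nipbl and Pds5a, and Stag1 and Smc1a.

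The loader gene Nipbl (chromosome 15, 8290617 to 8444463, minus strand), mutated in most people with Cornelia de Lange syndrome, stood at 7.38 TPM in the first replicate and 6.47 TPM in the second. Its partner Mau2 had 15.1 and 14.9 TPM, so Nipbl was lower in both libraries, at a log2 ratio of −1.12 ± 0.12 (SD, n = 2). GC content was 42.4% for Nipbl and 53.2% for Mau2, and with TPM adjusted for it the ratio turned to 0.19. The release factor gene Wapl had 39.2 and 34.3 TPM and was the highest of the 12 loading and regulatory genes. Nipbl over Wapl was −2.41 in both libraries, and −2.20 after the GC adjustment.

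Of the PDS5 pair, Pds5a carried nearly all the signal. Pds5a (chromosome 5, 65605721 to 65698273, minus strand) had 6.65 TPM (replicate 1) and 6.42 TPM (replicate 2), while Pds5b (chromosome 5, 150673739 to 150810690, plus strand) had 0.84 and 0.60 TPM from 455 and 246 counts. Pds5a was 7.92-fold higher in replicate 1 and 10.7-fold higher in replicate 2. GC content was 40.7% for Pds5a and 40.8% for Pds5b, and after adjustment the log2 ratio was 3.21, as against 3.20 before.

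Around these genes, 11 of 12 loading and regulatory genes reached 1 TPM in both libraries, Pds5b being the exception. After the GC adjustment Pds5b stood at 1.79 and 1.38 TPM, and all 12 reached 1 TPM. After Wapl, the highest was Sgo1, which protects centromeric cohesin, at 33.3 and 14.8 TPM, but its complete coding transcripts had 1.36 and 0.72 TPM. The lowest besides Pds5b was Esco1, an acetyltransferase of SMC3, at 1.67 and 1.28 TPM. Esco2, the acetyltransferase of S phase, had 9.18 and 4.47 TPM, and exceeded Esco1 by 2.13 ± 0.46 on the log2 scale. All 8 condensin subunits reached that level, led by Ncapd2 at 256 and 202 TPM and Smc4 at 117 and 81.4 TPM, and Ncapd3 was lowest at 2.11 and 1.19 TPM. In complete coding transcripts Ncapd2 had 22.5 and 17.6 TPM and Smc4 30.1 and 28.1 TPM, closer to the cohesin genes. Ncaph2 led the condensin subunits by that measure, at 75.7 and 79.1 TPM, and stayed far above Smc3. Smc3 exceeded its condensin relative Smc2 by 1.80 ± 0.62 on the log2 scale. The 6 measured genes of the SMC5/6 complex all reached it too, led by Nsmce4a at 116 and 138 TPM and Nsmce2 at 14.7 and 13.9 TPM, with Smc6 lowest at 3.81 and 3.10 TPM. Of 11 CTCF partners and other loop factors, 10 reached 1 TPM in both libraries. Ldb1, which joins enhancers to globin promoters, had 296 and 257 TPM, and the zinc finger gene Maz had 195 and 196 TPM. Zfp143 was lowest at 0.60 and 0.47 TPM.

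Of 6 genes listed for meiotic cohesin and its regulators, Rec8 and Sgo2a reached 1 TPM in both libraries. Smc1b, Rad21l and Meikin had 0 counts in both libraries and Stag3 had 0 and 1 counts. Against the limit of 3 counts, Smc1a was at least 558-fold higher than Smc1b in replicate 1 and 324-fold higher in replicate 2, and by complete coding transcripts at least 513-fold and 249-fold higher. Rec8, the meiotic kleisin, stood at 18.5 TPM in the first replicate and 32.2 TPM in the second, of which the complete coding transcript ENSMUST00000002395 held 95.2% and 97.3%. Rad21 was below Rec8 in both libraries, at a log2 ratio of −0.14 in replicate 1 and −1.61 in replicate 2. The mean of −0.88 ± 1.04 was smaller than its spread. With TPM adjusted for GC content, 56.6% for Rec8, the mean was 0.14, from 0.82 in replicate 1 and −0.55 in replicate 2. Sgo2a, a regulator and not a cohesin subunit, had 2.51 and 1.90 TPM. The germ cell markers named above were at 0 counts in the same libraries.

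Most of the cohesin genes were higher in replicate 1 than in replicate 2. For each gene, the split of its counts between the libraries was set against the TMM-scaled library ratio (exact binomial test, two-sided), with Benjamini-Hochberg adjustment over the 10445 gene rows with at least 20 summed counts. This sets the libraries against counting noise alone and says nothing of a condition. At an adjusted p of 0.05 it called 8 of the 9 genes with counts, against 59.3% of all gene rows tested. Under a filter of at least 100 summed counts, which all 9 genes passed, it called 8 of them and 66% of 9026 rows. With DESeq2 size factors it also called 8, against 59.1% of the rows. Under TMM scaling, 7 of the 8 were higher in replicate 1, a call made for 30.4% of the rows, and 1 was lower, a call made for 28.9%. The median log2 ratio of replicate 1 over replicate 2 was 0.43 over the 9 genes and 0.02 over the tested protein-coding genes. None of the 9 lay outside the middle 95% of protein-coding genes, which ran from −0.72 to 1.00.

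Stag2 differed most, 1.75-fold higher in replicate 1 (log2 ratio 0.80, 95% counting interval 0.68 to 0.93, exact binomial adjusted p = 7.40e-38), followed by Rad21 at 1.53-fold (0.61, interval 0.54 to 0.69, exact binomial adjusted p = 4.36e-58). Stag1 was 1.47-fold, Smc1a 1.40-fold, Pds5b 1.35-fold and Smc3 1.28-fold higher in replicate 1. All 5 core subunits were among the genes called higher there. Nipbl was 1.09-fold higher (exact binomial adjusted p = 0.000480). Ctcf was slightly lower in replicate 1, at 0.947-fold (log2 ratio −0.08, exact binomial adjusted p = 7.40e-05), and with library totals in place of TMM, where 59.3% of gene rows were called, it was not called. Pds5a, at −0.01 with an interval of −0.11 to 0.08, was not called (exact binomial adjusted p = 0.840). The interval leaves room for differences within about that range.

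GC content and some other gene groups moved with this difference. Protein-coding genes under 40% GC had a median log2 ratio of 0.22 and those at 56% or more −0.10. In the range from 40% to 44%, where Stag1, Stag2, Nipbl, Pds5a and Pds5b lie, the median was 0.16, and 40.4% of genes were called higher in replicate 1. With scaling along GC content, 7 of the 9 genes were called, against 57.3% of the 10388 gene rows tested under it. There Stag2 at 0.62, Rad21 at 0.57, Stag1 at 0.40 and Smc1a at 0.39 were called higher in replicate 1. Smc3 was called higher as well, but at 0.15 in place of 0.36. Pds5b, at 0.25 in place of 0.43, was no longer called (exact binomial adjusted p = 0.0524), nor was Nipbl, at −0.035 (exact binomial adjusted p = 0.383). Pds5a was called lower at −0.20 (exact binomial adjusted p = 0.000145), and Ctcf at −0.12. Under TMM scaling, 13 of 16 mitosis genes were called higher and 2 lower in replicate 1, with a median log2 ratio of 0.32. Under the same scaling, 7 of 8 condensin subunits were called higher and 1 lower, with a median of 0.32. Other lists were more mixed. Of 11 CTCF partners and other loop factors, 3 were called higher and 4 lower, with a median of 0.03. Of 6 SMC5/6 genes, 3 were called higher and 2 lower (median 0.12), and of 12 erythroid markers 7 and 5 (median 0.19). Of all gene rows tested under TMM scaling, 30.4% were called higher and 28.9% lower. Also under TMM scaling, Sgo1 was higher by 1.09 and Esco2 by 1.00 on the log2 scale, while the log2 ratio of Rec8 was −0.88. Myeloid markers summed to 0.32 TPM in replicate 1 and 11.1 TPM in replicate 2, with S100a8 and Ly6g at 0 counts in both. Mpo, Elane and Prtn3 were called lower in replicate 1 under TMM scaling. The part of GC content, mitotic genes or myeloid RNA in the difference was not tested beyond the scaling given here.

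**Figure D4:**
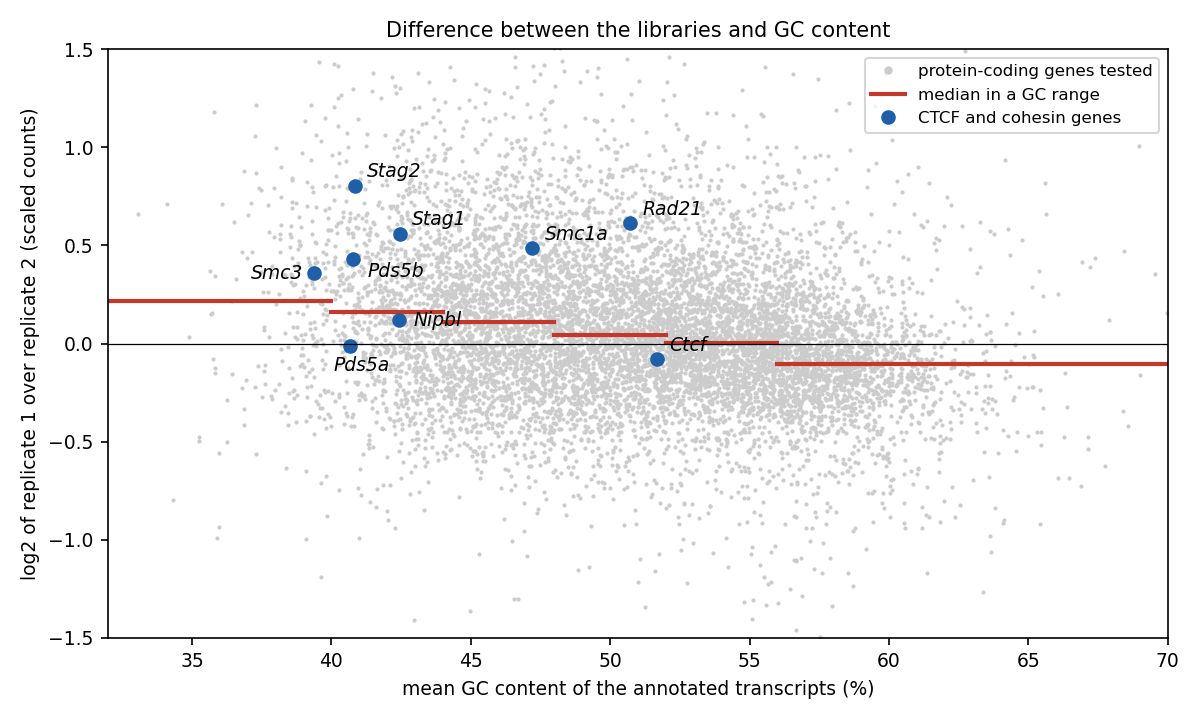
Log2 ratio of scaled counts, replicate 1 over replicate 2, against the mean GC content of a gene's annotated transcripts, for 9422 protein-coding genes (grey), with 130 outside the axes, and the 9 detected CTCF and cohesin genes (blue). Red lines are medians within GC ranges, from 0.22 below 40% to −0.10 at 56% or more. Stag2 and Rad21 stand highest of the named genes.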

How the data were processed

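The authors deposited, for each library, a gene table and a transcript table on mm10 and GENCODE M4, per the deposited description files. The sources used here name no aligner or quantifier and do not say whether strand was used. Expected counts are the authors' estimated fragments per feature and were rounded for the test, and TPM is their deposited length-corrected abundance. Percent of a gene's TPM per transcript and posterior standard deviations of counts (other deposited values, as are lengths) came from the deposited transcript tables. GENCODE M21, also on mm10, gave names, coordinates, transcript types and GC content. Coding transcripts without an open coding end were called complete. The deposited transcript models of Nipbl and Rad21 are shorter than in M21. Rows with other names (26345, holding 9 counts) were left out.

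Members and lists were chosen with earlier results of these data known. Every member was named, with the 2 highest and the lowest gene of the context lists, all pair genes and transcripts with at least 10% of TPM. Marker lists are given by counts and sums, with few markers named. With 2 libraries of 1 group there is no pattern, so no gene was named for likeness. Other genes were named after their values were seen. Eid3 was not analysed here. The binomial step was tested on simulated data. Separate cultures are not described, so p-values and spreads may be technical. Intervals and the floor of 3 counts cover counting error only, at 95%. GC adjustment used a lowess curve with a span of 0.3 over protein-coding genes. Alternatives were posterior means, pseudocounts, filters, DESeq2 1.42.0 size factors, library totals, GC adjustment, a total without globin and mitochondrial genes, and each replicate left out. Complete coding transcripts, GC scaling and the middle 95% were added after the data were seen. Python 3.11.15, scipy 1.17.1, statsmodels 0.14.6, R 4.3.3 and edgeR 4.0.16 were used.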

Additional observations from a re-analysis of the deposited data

How the results depend on the processing

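Leaving out 1 of 2 replicates cannot move a level or ratio beyond 1 SD of the mean, so those values say nothing of stability. Of the 231 other alternative values, 180 kept their call where a gene was tested, stayed within 1 SD for levels and ratios, or within 1.5 times for counts. Some of the 180 could not move either, so their number is no measure of stability. Changed count filters leave every log2 ratio as it was. Rad21, Nipbl and Pds5a, with 1 transcript each, keep their transcript share and their level in complete coding transcripts. The count of genes at 1 TPM in both libraries, 8, was 9 at a minimum of 0.5 TPM, 7 at 5 TPM, 9 after GC adjustment and 7 in complete coding transcripts. Of 11 pairs with a ratio under every setting, all 11 had 1 sign in both libraries, and 10 did so after GC adjustment and in complete coding transcripts. GC adjustment turned the log2 ratio of Nipbl over Mau2 to 0.19. For Rad21 over Rec8 it gave a mean of 0.14, with opposite signs in replicate 1 (0.82) and replicate 2 (−0.55). Left-out replicates gave Rad21 over Rec8 from −1.61 to −0.14. Pds5a over Pds5b was 2.13 with a pseudocount of 1 TPM, and Smc3 over Smc2 was 2.66 in complete coding transcripts. Between the libraries, 8 of 9 genes with counts were called with edgeR scaling (59.3% of all rows tested), 8 with DESeq2 size factors (59.1%) and 7 with library totals (59.3%), where Ctcf at −0.02 was not called (exact binomial adjusted p = 0.354). None, 0 of 9, lay outside the middle 95% of protein-coding genes, a different criterion by construction. Nipbl turned to −0.035 with scaling along GC content. Leaving globin and mitochondrial genes out of the total must raise every detected gene, since the remaining TPM is scaled up to the same sum. Ctcf stood at 183 TPM there. Low counts limit the transcript shares of Stag1, Stag2, Smc1a and Pds5b. No paired analysis was possible because there is 1 group.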
